A study of Mus musculus with 24 samples.

Results

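The 8 genes described here, Kap, Acsm3, Apoh, Sorcs1, Ceacam2, Atp13a4, Bhmt and Serpina1f, are kidney genes that differ between male and female mice or are known to respond to androgens. They were listed by symbol from among 53392 genes and were chosen by their measured male and female levels in these libraries, so male over female values are given as a description with no test. The tested question was how injury moved each gene. The tested groups were injured (IRI, ischemic acute kidney injury) and their controls were sham-operated, all FVB mice, an inbred strain, of either sex. The labels give neither the age of the mice nor the time after injury. Each kidney was digested with enzymes, and 2 materials were collected: proximal tubules by microdissection, and cells caught with microbeads against CD31, the endothelial surface protein encoded by Pecam1. There were 3 samples each of injured male, sham male, injured female and sham female tubules, and likewise of the endothelial isolates, except that sham females had 2 there. Nothing in the labels says that an endothelial isolate and a tubule sample with the same number came from 1 mouse.

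In the mouse kidney, the cells of the proximal tubule are the main site of the response to androgens. Kap, the kidney androgen-regulated protein gene, has long served as its reporter. Sex differences in this tissue are mostly set by testosterone in adult males, and genes higher in females include those that androgens hold down.

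By role, the 8 genes fall into 4 kinds. Kap encodes a small secreted protein of proximal tubule cells. Acsm3 encodes a mitochondrial acyl-CoA synthetase for medium-chain fatty acids, and Bhmt encodes betaine-homocysteine methyltransferase, which turns homocysteine into methionine. Sorcs1 encodes a sorting receptor of the VPS10 family, Atp13a4 a P5-type transport ATPase, and Ceacam2 an adhesion molecule of the immunoglobulin superfamily. Apoh encodes beta-2-glycoprotein I, a phospholipid-binding plasma protein made mainly in liver, and Serpina1f belongs to the alpha-1-antitrypsin-like serpins. On GRCm38 in GENCODE M21 they lie on chromosomes 6 (Kap, 133849851 to 133853762), 7 (Acsm3, 119760923 to 119787513, and Ceacam2, 25516042 to 25539857), 11 (Apoh, 108343354 to 108414396), 12 (Serpina1f, 103688044 to 103695529), 13 (Bhmt, 93616675 to 93637961), 16 (Atp13a4, 29395853 to 29544864) and 19 (Sorcs1, 50143299 to 50678646). Acsm3 and Apoh lie on the plus strand, and the other genes lie on the minus strand.

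Promoter windows of 4 members, the 250 bases before the RefSeq start on GRCm38.p6, are shown because they hold the contrast seen among the 8: a strongly male gene with none of the motifs searched, and genes of either sex with half-sites. They run 5′ to 3′ on the gene's strand, and capitals mark AGAACA, a half-site of steroid hormone response elements, and AGGTCA, a half-site of other nuclear receptors, each searched on both strands (TGTTCT and TGACCT on the other strand).
Kap, chr6:133853668-133853917, minus strand: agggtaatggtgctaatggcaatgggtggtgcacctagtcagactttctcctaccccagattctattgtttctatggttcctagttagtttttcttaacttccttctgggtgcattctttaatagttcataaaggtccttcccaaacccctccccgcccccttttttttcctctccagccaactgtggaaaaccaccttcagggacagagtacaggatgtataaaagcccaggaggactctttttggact
Apoh, chr11:108395047-108395296, plus strand: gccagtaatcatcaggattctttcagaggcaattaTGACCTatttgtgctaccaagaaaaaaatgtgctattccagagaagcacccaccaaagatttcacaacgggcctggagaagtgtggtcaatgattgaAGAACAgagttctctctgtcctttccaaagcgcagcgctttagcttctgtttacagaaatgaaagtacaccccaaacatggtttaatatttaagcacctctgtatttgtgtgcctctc
Ceacam2, chr7:25540005-25540254, minus strand: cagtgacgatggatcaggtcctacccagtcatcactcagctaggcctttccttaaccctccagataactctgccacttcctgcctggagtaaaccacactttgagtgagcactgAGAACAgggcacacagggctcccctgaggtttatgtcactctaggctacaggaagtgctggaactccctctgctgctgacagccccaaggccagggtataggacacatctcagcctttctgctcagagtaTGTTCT
Bhmt, chr13:93637759-93638008, minus strand: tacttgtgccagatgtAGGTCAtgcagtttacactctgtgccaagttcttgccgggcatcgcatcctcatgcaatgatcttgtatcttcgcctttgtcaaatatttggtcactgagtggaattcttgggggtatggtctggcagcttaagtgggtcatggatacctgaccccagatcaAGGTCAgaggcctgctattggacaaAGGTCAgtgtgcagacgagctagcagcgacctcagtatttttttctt
AGAACA was found upstream of 2 of the 8 genes, Apoh (base -118) and Ceacam2 (bases -136 and -6), against 16.1% of 32851 promoters. AGGTCA was found upstream of 4, Apoh, Atp13a4, Bhmt and Serpina1f, against 14.0% of promoters. Members were counted by gene, over any of their windows, while the percentages are per window. Atp13a4 had a further window with no match. The whole palindrome, AGAACA and TGTTCT spaced by 3 bases, was upstream of 0 of the 8 and in 0.00913% of promoters. TTCNNNGAA, a STAT site, was upstream of Serpina1f only, against 7.02% of promoters. A match is a description of letters, and no match says only that these letters are not in this window.

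The libraries held 32592517 to 54906972 estimated reads per sample. Levels are given as CPM, read counts scaled to a common library size of 1e6 after TMM normalisation. Changes are log2 values ± SE from edgeR's quasi-likelihood test, and a gene is called at a Benjamini-Hochberg adjusted p under 0.05 over all genes tested. The injury comparisons share libraries with the male and female comparisons that drew attention to these genes, so their p-values are not independent of that choice. In tubules, 12 proximal tubule markers summed to 9029 to 11665 CPM in injured males, 19248 to 23235 CPM in sham males, 15484 to 18511 CPM in injured females and 19057 to 24363 CPM in sham females. Of these 12 markers, 9 fell with injury in males and 0 were called in females, and their part in the members' values in tubules was not tested. In the CD31 isolates, the 12 proximal tubule markers still summed to 6051 to 22742 CPM and 10 endothelial markers to 412 to 1901 CPM. All 10 endothelial markers averaged higher in the CD31 isolates than in tubules in each sex and condition (median ratio 3.74 to 6.53). Markers of other cells were higher there too. The 8 thick ascending limb and distal tubule markers summed to 7847 to 16140 CPM in the isolates, against 1639 to 7698 CPM in tubules. The 6 podocyte markers summed to 701 to 1667 CPM in the isolates, against 20.8 to 410 CPM in tubules. In bulk samples, fewer cells of a type and less RNA per cell cannot be told apart. Havcr1, the tubule injury marker KIM-1, was at 32.9, 288 and 324 CPM in injured male tubules, against 3.42 to 5.48 CPM in sham males, and at 7.93, 27.3 and 7.82 CPM in injured female tubules, against 1.28 to 2.53 CPM in sham females.

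In male tubules Ceacam2, Bhmt and Serpina1f fell after injury and Atp13a4 was called higher on few reads, while Kap and Acsm3, the most abundant of the 8, did not pass the test. All 4 are genes that are higher in females, so in males they were called at low levels. Atp13a4 passed the filter on low counts only through the female samples, where it is high. With only the male groups in the fit it was not tested, and none of the other 3 was called (edgeR adjusted p = 0.11 for Ceacam2, 0.17 for Bhmt and 0.18 for Serpina1f). That fit called 99 of 16862 genes higher and 55 lower, against 1939 and 1549 of 18369 in the main fit. The ranges of injured and sham males were apart for 3 of the 8, all lower, against 16.3% of genes with lower ranges apart. With 4 of 8 called, the background was 19.0% of 18369 genes called in the main fit of that comparison (10.6% higher and 8.43% lower). Without injured male replicate 3 the background moved to 3853 of 19309 genes higher and 4350 lower. In female tubules 0 of 8 were called by edgeR, 1 had an unadjusted p under 0.05 (Bhmt), and DESeq2 called 1 (Bhmt). The background there was 0.0109% of genes called by edgeR, while DESeq2 called 540 of all genes higher and 148 lower. Shares of all genes at an unadjusted p under 0.05 were not counted. Bhmt alone had ranges apart in females, lower after injury, against 11.0% of genes. Among male tubules the median log2 change of the 8 was -1.08, against -0.03 over all genes tested, and in female tubules it was -0.69, against 0.00.

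**Figure D1:**
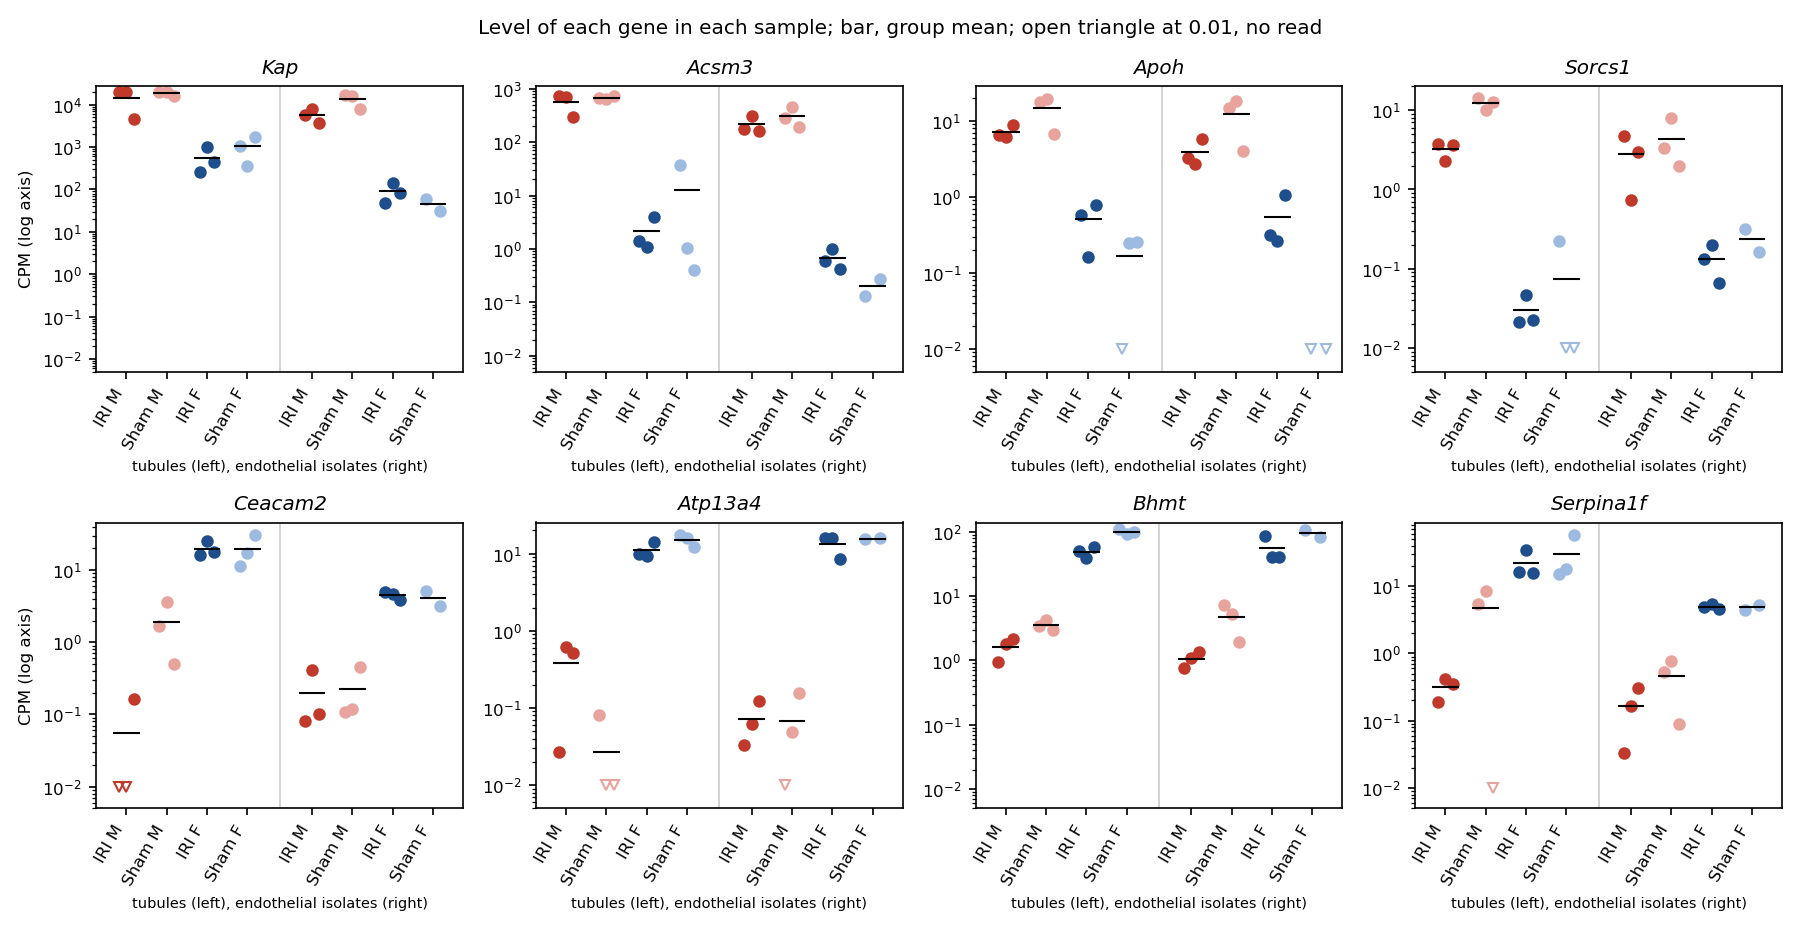
Level of each of the 8 genes in each sample, in CPM on a log axis, for tubules (left of the grey line) and endothelial isolates (right); points are samples, bars are group means, and open triangles at 0.01 mark samples with no read. Kap, Acsm3, Apoh and Sorcs1 sit higher in males and the other 4 genes higher in females in each condition, and 2 injured male tubule samples have no Ceacam2 read.

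Kap was the most abundant of the 8 in males, and injury did not move it past the test in tubules. It had 19405, 19839 and 4529 CPM in injured male tubules, against 19501, 19806 and 16018 CPM in sham male tubules. Replicates 1 and 2 of the injured males matched the sham males, and replicate 3 alone was low, so the ranges overlap (-0.33 ± 0.64, edgeR adjusted p = 0.76). Without both male replicates 3, a setting added after the data were seen, the change was 0.02 (adjusted p = 0.99). Kap took 0.487% of all reads in injured male replicate 3, against 1.44 to 1.82% in sham male tubules.

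Female tubules held Kap at far lower levels, with a wide spread between mice. It had 251, 1003 and 438 CPM in injured female tubules, against 1072, 365 and 1705 CPM in sham female tubules. The groups overlap (-0.91 ± 0.64, adjusted p = 0.72). In the male endothelial isolates Kap had 5712, 7910 and 3660 CPM after injury, against 16626, 15832 and 7931 CPM after sham surgery. These groups do not overlap, by a narrow gap, and the change of -1.25 ± 0.46 did not pass (adjusted p = 0.24). Proximal tubule markers summed to 6051 to 7386 CPM in those injured isolates, against 10341 to 17265 CPM in the sham ones. Their part in the Kap values was not tested. With the score of these markers as a covariate Kap was not called, but that fit called 0 of 19910 genes higher and 0 lower in this comparison. The score ran over -1.42 to -0.76 in injured and -0.25 to 0.44 in sham male isolates, so the score and the injury cannot be told apart there.

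The male endothelial libraries divide in the same way for several of the 8: sham male endothelial replicate 3 had the lowest Kap, Acsm3, Apoh, Sorcs1, Bhmt and Serpina1f of its group. It also had the highest Pecam1 of the 3 sham male isolates, at 199.9 CPM, against 66.8 and 58.9 CPM in replicates 1 and 2.

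Of the enzymes, Acsm3 was abundant in males and scarce in females. Acsm3 had 731, 691 and 299 CPM in injured male tubules, against 667, 629 and 731 CPM in sham male tubules. As with Kap, only injured replicate 3 was low, and the change did not pass (-0.23 ± 1.10, adjusted p = 0.91). In female tubules Acsm3 had 1.41, 1.08 and 3.96 CPM after injury, against 36.6, 1.04 and 0.398 CPM after sham surgery. Sham female replicate 1 stood apart from every other female tubule sample, and the log2 change of -2.57 ± 1.21 (adjusted p = 0.47) turns to 1.55 without it (adjusted p = 0.50). That sample also held RNA of 2 Y-linked genes, Ddx3y at 1.73 CPM and Eif2s3y at 1.19 CPM, as did injured female replicate 3, at 1.55 and 0.95 CPM, where the other female tubule samples had at most 0.04 CPM. Male tubule samples had 53.1 to 122 CPM of Ddx3y. The part of such RNA in the Acsm3 value was not tested.

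In the endothelial isolates Acsm3 had 178, 311 and 164 CPM in injured males, against 278, 454 and 191 CPM in sham males, and the ranges overlap. In females it was near the limit of detection, at 0.602, 0.986 and 0.413 CPM after injury, against 0.132 and 0.271 CPM after sham surgery. The female groups do not overlap, but the change did not pass (1.79 ± 0.61, edgeR adjusted p = 1). The antisense gene Eri2 shares 1962 exon bases with Acsm3, and 31.3% of the 31-base words of the most-read Acsm3 transcript occur in Eri2. Eri2 was at no more than 14.5 CPM in any sample, and without strand in the counting the reads of the 2 genes cannot be told apart there.

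Bhmt had a negative log2 change after injury in each sex of both materials, and passed the test in male tubules. It had 51.4, 39.6 and 58.1 CPM in injured female tubules, against 109.8, 92.6 and 98.4 CPM in sham female tubules. The female groups are well apart, with a log2 change of -1.03 ± 0.24 (unadjusted p = 0.0014), but the adjusted p over all genes was 0.11. DESeq2 called it (adjusted p = 0.0029), as did edgeR on the female groups alone (adjusted p = 0.0052) and edgeR without injured male replicate 3, which enters only through the shared spread (adjusted p = 0.027). Over all genes, those fits called 540, 805 and 344 higher and 148, 362 and 157 lower. With the score of thick ascending limb and distal tubule markers as a covariate, the female change was -0.28 (adjusted p = 0.73). Those markers summed to 5980 to 7698 CPM in injured female tubules, against 1926 to 2327 CPM in sham female tubules, so the score and the injury cannot be told apart there.

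In male tubules Bhmt was at low levels. It had 0.938, 1.78 and 2.13 CPM in injured males, against 3.38, 4.33 and 3.00 CPM in sham males. It fell by 1.13 on the log2 scale (SE 0.26, edgeR adjusted p = 0.017), with no overlap. The call ended without sham male replicate 2 (adjusted p = 0.065), without injured male replicate 2 (adjusted p = 0.052) and with only the male groups in the fit (adjusted p = 0.17). The difference between the sexes in the Bhmt response was -0.11 ± 0.35 on the log2 scale (adjusted p = 0.89), while its level was 4.83 log2 units lower in sham males than in sham females.

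In the endothelial isolates Bhmt had 0.773, 1.09 and 1.34 CPM in injured males, against 7.21, 5.34 and 1.96 CPM in sham males. These groups do not overlap either (-2.22 ± 0.49, adjusted p = 0.064). DESeq2 called it (adjusted p = 4.9e-04). With the proximal tubule marker score as a covariate the edgeR adjusted p was 0.77, in a fit that called 0 of 19910 genes higher and 0 lower there. That score does not overlap between injured and sham male isolates, so the score and the injury cannot be told apart. Injured female isolates had 85.2, 40.8 and 40.3 CPM, against 107.8 and 82.9 CPM in sham females, which overlap (-0.78 ± 0.49, adjusted p = 1). Of the 31-base words of Bhmt, 63.4% also occur in Gm5096, which was at no more than 0.58 CPM in any sample, so the split of reads between these 2 genes is uncertain.

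**Figure D2:**
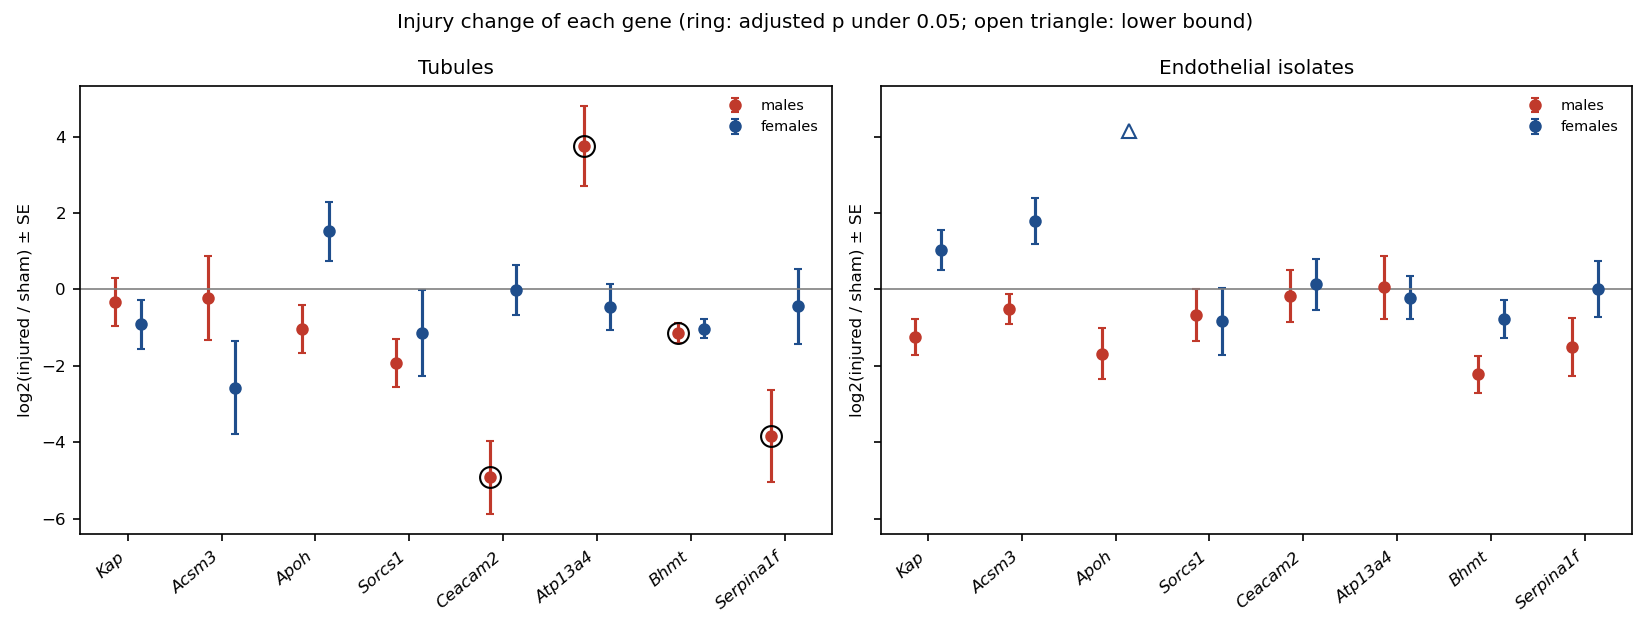
Log2 change from sham to injured for each gene, ± SE, in males (red) and females (blue), for tubules (left) and endothelial isolates (right); rings mark an adjusted p under 0.05 and the open triangle is a lower bound where the sham group has no read. In male tubules Ceacam2 (-4.92), Serpina1f (-3.84), Bhmt (-1.13) and Atp13a4 (3.75) are ringed, and Bhmt sits near -1 in both sexes.

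Among the membrane proteins, Ceacam2 had the largest of the called changes in male tubules. It had 0, 0 and 0.163 CPM in injured male tubules, against 1.69, 3.63 and 0.50 CPM in sham male tubules. Injured males held 8 reads in all and sham males 226, a ratio of 0.032 with an exact 95% counting interval of 0.014 to 0.064. The groups do not overlap, and Ceacam2 fell by 4.92 on the log2 scale (SE 0.96, edgeR adjusted p = 0.0083). It stayed called in 12 of 12 fits that left out 1 library, but not with length offsets (adjusted p = 0.085) or with only the male groups in the fit (adjusted p = 0.11). Ceacam2-202 took 89.7 to 94.2% of the Ceacam2 reads in sham female tubules. In sham male tubules the median share of Ceacam2-203 was 100% (0 to 100%), against 0% in sham females. The 8 reads of injured males were assigned to Ceacam2-204, a processed transcript that took 5.84 to 10.3% in sham females. The part of this assignment in the male change was not tested.

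In female tubules the Ceacam2 groups overlap. It had 16.4, 25.3 and 17.8 CPM in injured females, against 11.5, 17.5 and 30.6 CPM in sham females (-0.02 ± 0.65, adjusted p = 1). The difference between the sexes in the response, -4.90 ± 1.17, did not pass (adjusted p = 0.071). It passed with DESeq2 (adjusted p = 3.6e-04), with no low-count filter (adjusted p = 0.014), with the distal marker score as a covariate (adjusted p = 0.0059) and without injured male replicate 3 (adjusted p = 0.0052), sham male replicate 3 (adjusted p = 0.037) or both (adjusted p = 9.2e-04). Over all genes these settings called 1482, 399, 4884, 5892, 223 and 6276, in that order, against 157 in the main fit. Of the 31-base words of the most-read Ceacam2 transcript, 55.0% also occur in Ceacam1, its close relative. Ceacam1 stood at 27.7 ± 4.2 CPM in injured male tubules and 27.3 ± 9.0 CPM in sham male tubules (SD, n = 3 each), and how the reads of the 2 genes were split is uncertain.

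Sorcs1, higher in males, was at a lower level in each injured male tubule sample than in any sham one. It had 3.78, 2.28 and 3.60 CPM in injured male tubules, against 14.1, 9.97 and 12.7 CPM in sham male tubules. The ranges are far apart, yet the log2 change of -1.93 ± 0.63 just missed the threshold (edgeR adjusted p = 0.053). It passed in 8 of 22 alternatives, DESeq2 (adjusted p = 1.1e-04) and the male groups alone (adjusted p = 0.049) among them. Female tubules had 4 reads after injury and 7 after sham surgery, so no response could be read. In male endothelial isolates Sorcs1 had 4.72, 0.732 and 3.00 CPM after injury, against 3.32, 7.87 and 1.96 CPM after sham surgery, with overlap.

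Atp13a4 was the 1 gene called higher in male tubules, at the limit of detection, and its levels in males alone are below the filter on low counts. It had 0.027, 0.62 and 0.511 CPM in injured males, against 0.081, 0 and 0 CPM in sham males. That is 51 reads against 3, a ratio of 15.4 with a counting interval of 4.99 to 77.3, and injured replicate 1 lies within the sham range. The fitted change was 3.75 ± 1.04 (adjusted p = 0.030), and the call ended without injured male replicate 2 (adjusted p = 0.11), sham male replicate 2 (adjusted p = 0.097), sham male replicate 3 (adjusted p = 0.093) or both male replicates 3 (adjusted p = 0.075), and with the replicate block (adjusted p = 0.052). Of the Atp13a4 reads, 32.5 to 100% in injured male tubules were assigned to Atp13a4-206, a retained-intron transcript, which took 5.76 to 11.0% in injured females and 0 to 5.66% in sham females. The injured male shares rest on 1, 25 and 25 reads in replicates 1 to 3, and the 3 reads of sham males were assigned to Atp13a4-202. Over all samples the protein-coding Atp13a4-202 held the largest share of the reads, at 49.2%.

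Female tubules had Atp13a4 at 9.83, 9.19 and 14.3 CPM after injury, against 17.4, 16.1 and 12.05 CPM after sham surgery, which overlap (-0.46 ± 0.60, adjusted p = 0.91). In the female endothelial isolates it had 16.1, 15.8 and 8.39 CPM after injury, against 15.3 and 15.7 CPM after sham surgery. Within females, then, Atp13a4 levels were similar in both materials, at an endothelial over tubule ratio of 1.21 after injury and 1.02 after sham surgery. Male endothelial isolates had 11 reads after injury and 9 after sham surgery.

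Of the secreted proteins, Apoh showed opposite signs in the 2 sexes without passing the test in either. It had 6.56, 6.07 and 8.85 CPM in injured male tubules, against 17.8, 19.6 and 6.74 CPM in sham male tubules. Sham male replicate 3 lies within the injured range, and the change did not pass (-1.03 ± 0.62, adjusted p = 0.26). In female tubules it had 0.577, 0.161 and 0.788 CPM after injury, against 0, 0.248 and 0.256 CPM after sham surgery (1.53 ± 0.77, adjusted p = 0.53). The difference between the sexes in the response, -2.56 ± 0.99, did not pass (adjusted p = 0.19). Hepatocyte markers summed to 5.63 to 8.17 CPM in injured and 3.26 to 8.75 CPM in sham male tubules, and 11.4 to 12.5 CPM in injured and 8.96 to 11.3 CPM in sham female tubules. The sex difference passed without both male replicates 3 (adjusted p = 0.031), a setting that called 6276 of all genes, against 157 with every library.

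Apoh in the endothelial isolates gave the same pair of signs. Injured males had 3.26, 2.70 and 5.70 CPM, against 14.5, 17.9 and 3.96 CPM in sham males, with overlap (-1.68 ± 0.66, adjusted p = 0.27). Injured females had 0.312, 0.262 and 1.07 CPM, 76 reads in all, against no read in either sham female sample. Set against a floor of 3 counts over the sham group, that is at least 17.6-fold higher. Over the whole table it was not called by edgeR (adjusted p = 1), while DESeq2 called it (adjusted p = 0.012), as did edgeR with no low-count filter (adjusted p = 0.010).

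Serpina1f fell in male tubules, although 1 sham sample had no read of it. It had 0.188, 0.421 and 0.347 CPM in injured males, against 5.40, 8.59 and 0 CPM in sham males. Sham male replicate 3 lies below every injured sample, and neither of its 2 technical libraries held a read of the gene. It fell by 3.84 on the log2 scale (SE 1.21), just past the threshold (edgeR adjusted p = 0.046), and the call was lost in 11 of 12 fits that left out 1 library. It was kept when sham male replicate 3 was left out (-4.42, adjusted p = 0.0071).

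Female tubules had Serpina1f at 16.4, 34.9 and 15.9 CPM after injury, against 15.3, 17.99 and 57.2 CPM after sham surgery. These overlap widely (-0.44 ± 0.98, adjusted p = 0.96). The difference between the sexes in the response was -3.39 ± 1.53 (adjusted p = 0.25), and without both male replicates 3 it was -4.03 (adjusted p = 0.010). That setting called 6276 of all genes, against 157 with every library. In female endothelial isolates the level was lower and even, at 4.82, 5.37 and 4.57 CPM after injury, against 4.47 and 5.29 CPM after sham surgery.

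**Figure D3:**
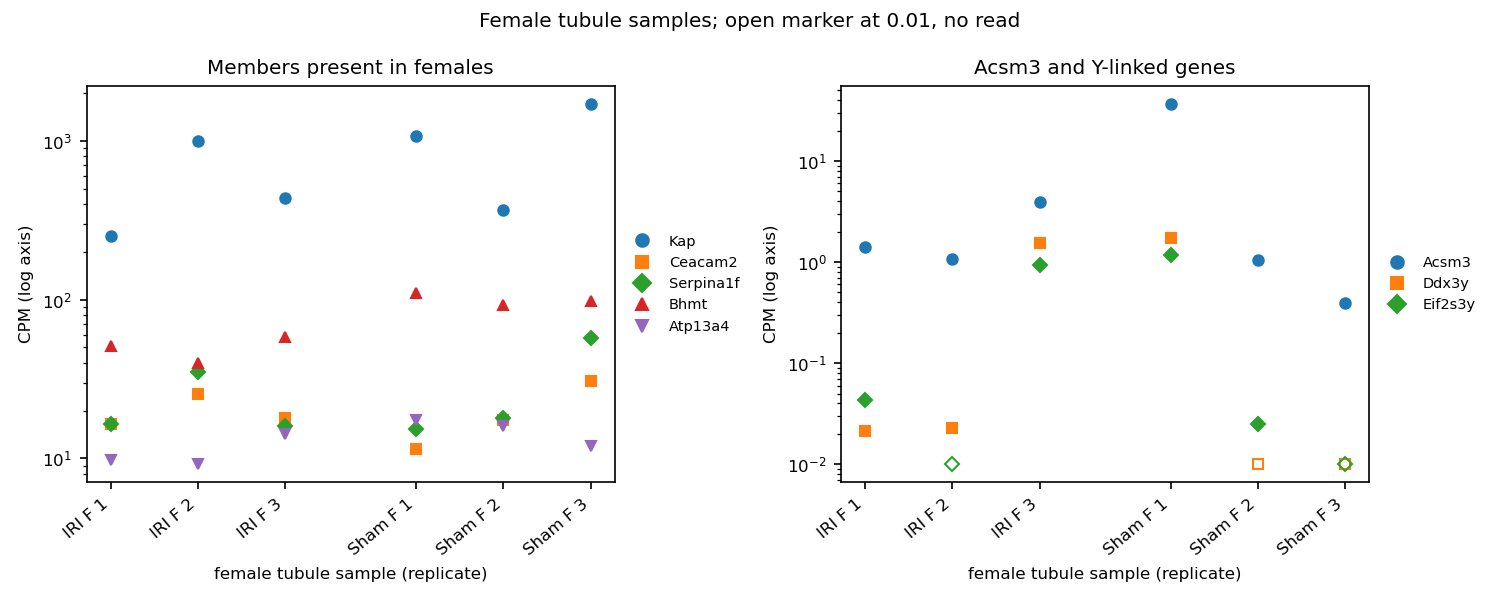
Female tubule samples, injured then sham, by replicate number: CPM on a log axis of 5 members present in females (left) and of Acsm3 with 2 Y-linked genes (right); open markers at 0.01 mark no read. Kap, Ceacam2 and Serpina1f are all highest in replicate 2 among injured samples and in replicate 3 among sham samples, and Acsm3 is highest where Ddx3y is highest.

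Among female tubule samples, Kap, Ceacam2 and Serpina1f were each highest in replicate 2 of the injured group and in replicate 3 of the sham group. Kap reached 1003 CPM in that injured sample and 1705 CPM in that sham sample, and Serpina1f reached 34.9 and 57.2 CPM there. Bhmt and Atp13a4 did not follow, since Atp13a4 was lowest in the same samples of each group. The same 3 genes were also lower in the endothelial isolates of females than in female tubules, though they were not the only ones. Their endothelial over tubule ratios were 0.16 after injury and 0.04 after sham surgery for Kap, 0.23 and 0.21 for Ceacam2, and 0.22 and 0.16 for Serpina1f. Acsm3 had 0.31 and 0.016, the latter with the high sham female tubule replicate 1 in its mean. Apoh had 1.07 after injury and no read in sham female isolates. The 12 proximal tubule markers had a median ratio of 0.97 after injury (0.53 to 1.38) and 1.03 after sham surgery (0.34 to 1.40). Bhmt had 1.12 and 0.95. In males, Ceacam2 and Serpina1f of sham samples had ratios of 0.12 and 0.10, against 0.73 for Kap and a median of 0.76 for the markers. Injured males had 3.68 for Ceacam2, on few reads, 0.53 for Serpina1f and 0.39 for Kap, against a marker median of 0.745. No test was made of these ratios.

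The direction of the difference between the sexes, which the choice of genes already fixes, was the same after injury for all 8. The estimates of its size moved, but the direct test of these shifts, given below, called 0 of 8 in tubules. Kap, Acsm3, Apoh and Sorcs1 were higher in males and Ceacam2, Atp13a4, Bhmt and Serpina1f higher in females, with no overlap, in injured and sham samples of both materials. As background, ranges were apart for 39.4% of genes in injured tubules, 29.8% in sham tubules, 24.2% in injured and 24.0% in sham endothelial isolates. Male minus female, on the log2 scale, in injured and then sham tubules, was 4.70 and 4.12 for Kap, and 8.06 and 5.72 for Acsm3. For Apoh it was 3.803 after injury and 6.36 after sham surgery, and for Sorcs1 6.61 and 7.40. For Ceacam2 it was -8.28 and -3.38, for Serpina1f -6.11 and -2.72, for Atp13a4 -4.82 and -9.03, and for Bhmt -4.93 and -4.83. As estimates, these differences were larger in size after injury for Kap, Acsm3, Ceacam2 and Serpina1f, smaller for Apoh, Sorcs1 and Atp13a4, and moved least for Bhmt. For Acsm3 this order rests on sham female replicate 1: the injured minus sham shift of 2.34 turns to -1.78 without it. Over 21 alternative fits the shift ran over 0.03 to 2.14 for Kap and -5.36 to -0.13 for Sorcs1. The Sorcs1 values rest on 4 reads in injured and 7 in sham female tubules.

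The direct test of those shifts, the difference between the sexes in the injury response, called 0 of 8 in tubules by edgeR, where 0.855% of all genes were called, and 4 had an unadjusted p under 0.05 (Ceacam2, Atp13a4, Apoh and Serpina1f). DESeq2 called 2 of them, Ceacam2 and Atp13a4 (adjusted p = 0.0052 for Atp13a4). The count over all genes was unstable. With every library 157 genes were called by edgeR and 1482 by DESeq2, and leaving out 1 library gave 19 to 223, except that 5892 were called without injured male tubule replicate 3, of which 2 were among the 8.

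In the endothelial isolates edgeR called 0 of 8 in injured against sham males, where 0.864% of 19910 genes were called, and 0 of 8 in injured against sham females, where 0.0% were. Ranges were apart and lower for 2 genes in males, Kap and Bhmt (9.18% of all genes), and apart and higher for 2 in females, Acsm3 and Apoh (13.8% of all genes). At an unadjusted p under 0.05 there were 3 genes in males (Kap, Apoh and Bhmt) and 2 in females (Acsm3 and Apoh), and DESeq2 called 1 in each, Bhmt in males and Apoh in females. Over all genes, DESeq2 called 704 higher and 507 lower in males, and 28 higher and 5 lower in females. The sex difference in the injury response called 0 of 8 (0.0% of all genes), with 3 at an unadjusted p under 0.05 (Kap, Acsm3 and Apoh) and 1, Apoh, called by DESeq2. For that difference DESeq2 called 32 of all genes higher and 31 lower. The log2 change of Kap was negative in male isolates and positive in female ones, where it had 47.1, 142 and 82.4 CPM, against 59.2 and 30.1 CPM in sham females. That difference of -2.28 ± 0.71 did not pass (adjusted p = 0.74).

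**Figure D4:**
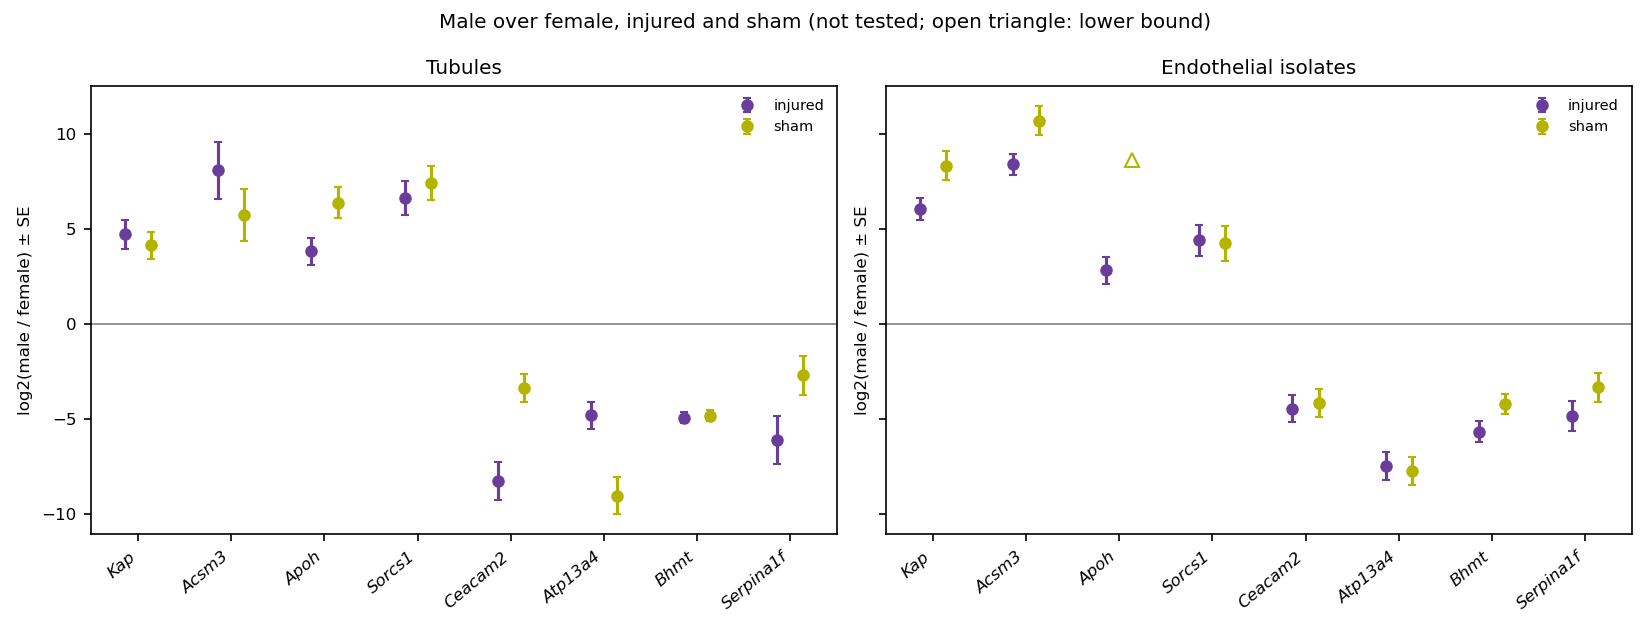
Male over female log2 difference of each gene, ± SE, in injured (purple) and sham (olive) samples, for tubules (left) and endothelial isolates (right), shown as a description with no test; the open triangle is a lower bound where sham female isolates have no Apoh read. Kap, Acsm3, Apoh and Sorcs1 lie above 0 and the other 4 genes below it in each condition, with the widest shifts between conditions for Ceacam2 and Atp13a4 in tubules.

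Per kilobase of the most-read transcript, so that levels of different genes can be set side by side, Kap stood at 20638 CPM per kb in injured and 26084 in sham male tubules. Acsm3 followed at 224 and 264 CPM per kb, then Apoh at 6.02 and 12.4. Lower still were Serpina1f at 0.219 and 3.21, Sorcs1 at 0.455 and 1.73, Bhmt at 0.649 and 1.43, Ceacam2 at 0.018 and 0.628 and Atp13a4 at 0.095 and 0.0066. In female tubules the order was Kap at 798 CPM per kb after injury and 1482 after sham surgery, Bhmt at 20.0 and 40.3, Serpina1f at 15.4 and 20.8, Ceacam2 at 6.43 and 6.44, and Atp13a4 at 2.74 and 3.75. Acsm3 was at 0.842 and 4.96, above Atp13a4 in sham females through replicate 1 alone, and Apoh and Sorcs1 were lower. Kap thus led in both sexes on the per-length scale. In CPM, Kap was highest in sham male tubules, then injured male tubules and sham male isolates, whose ranges overlap from each to the next. Injured male isolates came next, apart from both neighbours, then female tubules and then female isolates, each with overlapping injured and sham ranges.

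Other genes of sex-biased expression and steroid response were also measured in male tubules, where, as background to the counts of each list, 10.6% of all genes were called higher and 8.43% lower. The lists come from general knowledge, and were drawn up with earlier results of these data known. Of 15 male-biased kidney genes tested, 0 rose and 3 fell in male tubules: Odc1, the ornithine decarboxylase of polyamine synthesis and a classic androgen target (-1.33 ± 0.16, adjusted p = 8.8e-04), the nudix hydrolase gene Nudt19 (-1.78 ± 0.24, adjusted p = 0.0016) and Slc7a13, a proximal tubule amino acid transporter (-2.08 ± 0.51, adjusted p = 0.020). The list's median was -0.69, against -0.03 over all genes. Odc1 averaged 1198 ± 97 CPM in injured males and 3027 ± 355 CPM in sham males, and 663 ± 142 CPM in injured females and 700.5 ± 46.3 CPM in sham females (SD, n = 3 each).

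Of 10 genes listed as female-biased, 1 rose and 3 fell in male tubules. Hdc, the histamine-forming histidine decarboxylase, rose (3.48 ± 0.75, adjusted p = 0.012). Slc7a12, an amino acid transporter, fell (-3.39 ± 0.89, adjusted p = 0.025), as did Cyp2a4 (-1.01 ± 0.26, adjusted p = 0.024) and Slco1a6 (-0.98 ± 0.28, adjusted p = 0.034). In these samples Cyp2a4, a cytochrome P450, and Slco1a6, an organic anion transporter, go against that label, since they were higher in sham males than in sham females by 2.39 and 2.03 on the log2 scale.

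Genes of sex steroid reception and conversion were called in both directions in male tubules. The estrogen receptor gene Esr1 fell (-1.83 ± 0.26, adjusted p = 0.0022), as did Srd5a1, a steroid reductase that makes dihydrotestosterone (-1.29 ± 0.33, adjusted p = 0.024), and Hsd17b11 (-0.95 ± 0.28, adjusted p = 0.039). Hsd11b1, which reactivates glucocorticoid, rose (1.48 ± 0.47, adjusted p = 0.049).

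Relatives and pathway partners of the members were called in both directions in male tubules, beside the same 10.6% of all genes called higher and 8.43% lower, and several of these lists are too short to read a share from. Of 13 betaine and methionine cycle genes, 0 rose and 4 fell, Bhmt2, the paralogue of Bhmt, among them (-1.39 ± 0.26, adjusted p = 0.0073), with Sardh, Ahcy and Aldh7a1. Of 7 acyl-CoA synthetase and glycine conjugation genes, 0 rose and 3 fell, led by Acsm5, a relative of Acsm3 (-1.83 ± 0.20, adjusted p = 4.7e-04), with Gm4952 and Glyat. Of 5 other serpins of the A cluster, 1 rose, the acute-phase Serpina3n (6.38 ± 1.12, adjusted p = 0.0052), and 0 fell. Of 10 plasma protein genes, 4 rose (Trf, Apoe, Rbp4 and Apoc3) and 0 fell. Of 4 VPS10 receptors, Sorl1 rose (0.87 ± 0.28, adjusted p = 0.048), of 3 other P5-type ATPases Atp13a2 fell (-0.71 ± 0.20, adjusted p = 0.033), and of 2 CEACAM genes 0 were called.

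Female tubules gave 0 calls by edgeR over the 80 list genes, with 22 at an unadjusted p under 0.05 and 6 called by DESeq2. As background, DESeq2 called 540 of all 18369 genes there higher and 148 lower, and the share at an unadjusted p was not counted. The difference between the sexes in the response was called for 5 of the 80, beside 0.855% of all genes, a count that moved between 19 and 5892 genes when 1 library was left out: Odc1 (-1.24 ± 0.22, adjusted p = 0.033), Nudt19 (-1.87 ± 0.33, adjusted p = 0.033), Esr1 (-2.09 ± 0.37, adjusted p = 0.033), Acsm5 (-1.36 ± 0.27, adjusted p = 0.045) and Hdc (4.95 ± 1.00, adjusted p = 0.047). Beside these values, other markers moved with injury. Neutrophil markers summed to 10.8 to 47.9 CPM in injured male tubules, against 3.63 to 11.9 CPM in sham males, with 4 of 7 tested higher. In female tubules, of the 8 thick ascending limb and distal tubule markers 1 was called higher. The part of these cells in the members' values was not tested beyond the fit with the distal score as a covariate, in which 5 of 8 members were called in male tubules and 0 in female tubules. Of all 18369 genes, that fit called 2641 higher and 3295 lower in male tubules, and 0 in female tubules.

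The authors' deposited table of injured against sham male tubules gave log2 fold changes of -1.04 for Bhmt (adjusted p = 0.0021), 5.30 for Atp13a4 (adjusted p = 7.6e-05), -0.64 for Serpina1f (adjusted p = 0.021), -1.56 for Sorcs1 (adjusted p = 0.019) and -0.31 for Ceacam2 (adjusted p = 0.17). Its values for Serpina1f and Ceacam2 are nearer to 0 than the refitted ones, and the 2 sources are not on 1 scale: the authors' deposited table for female endothelial isolates gives all 8 members a log2 fold change that rounds to 0, with an error of 0.0014. In the authors' deposited table for female tubules, Bhmt (-0.87, adjusted p = 0.011) and Acsm3 (-0.10, adjusted p = 0.0059) were under 0.05. In the authors' deposited table for male endothelial isolates, Bhmt was under 0.05 (-1.94, adjusted p = 0.0011). Apoh was under 0.05 in the female isolates, again in the authors' deposited table (adjusted p = 0.0042).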

How the data were processed

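Messenger RNA of 23 mouse samples (24 libraries) in 8 groups was analysed. Per the labels' protocols, poly-A libraries were made from 20 ng of RNA and run on a NextSeq 500. Whether the kit was used with strand is not given in the sources used here. Per the submitters' processing notes, Salmon 0.13.1 and GRCm38 were used. The deposited files give, per transcript, estimated counts (not normalised), the TPM and the effective length in bases. The authors' deposited DESeq2 tables give a log2 fold change, its error, a p-value and an adjusted p per gene, and these were used as a comparison only.

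The counts were added up by gene and rounded to whole numbers, and the 2 technical libraries of sham male tubule replicate 3 were added. TPM served to see how a gene's transcripts share reads, and effective lengths gave length offsets. For each material, 1 model was built in edgeR 4.0.16 (R 4.3.3) with TMM factors, filterByExpr (minimum count 10, minimum total 15), 1 mean per group, the quasi-likelihood F-test, and Benjamini-Hochberg adjustment over 18369 tubule and 19910 endothelial genes (residual degrees of freedom 8 and 7). Each SE came from the log2 change over the square root of its F value. All 8 members passed the filter in both materials over all 4 groups, but with only the compared groups Atp13a4 did not in male tubules, nor Sorcs1 in female tubules or isolates, nor Ceacam2 and Atp13a4 in male isolates. A floor is 3 counts over a group, 0.019 to 0.0307 CPM, and floors and intervals (exact, 95%) cover counting error only.

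The members and lists were chosen with earlier results of these data known. Tests of male against female samples had been planned for injured tubules and for both endothelial comparisons, and were replaced by description because the members were chosen for that difference. The genes named are the members, list genes by smallest adjusted p (up to 4 a list) and the 2 genes most correlated with each member. The exceptions, chosen after their values were seen, are Hsd11b1, Ceacam1, Gm5096, Eri2, Ddx3y, Eif2s3y, Pecam1 and Havcr1. One gene of the steroid list, and that list's counts, are not reported here. The labels describe separate mice. Fits were also run on simulated data, with a smaller spread between samples than was fitted here and the same base level in every group. Those runs do not cover genes that are low in 1 sex, as the called members are in males. The alternatives were RLE normalisation, no filter, DESeq2 1.42.0, length offsets, only the groups compared, a replicate block, marker scores as covariates, single technical libraries, and each library left out in turn. Promoter sequences are from RefSeq, and all 8 members matched.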

Additional observations from a re-analysis of the deposited data

How the results depend on the processing

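Depth limits the low levels: Atp13a4 and Ceacam2 in males, and Sorcs1 and Apoh in females, rest on few reads. Members called in injured against sham male tubules numbered 4, and 2 with length offsets and 2 with the replicate block (Ceacam2 and Bhmt). With only the groups compared there was 1 (Sorcs1, edgeR adjusted p = 0.049, and none of the 4), where 99 of all genes were called higher and 55 lower. Leaving out a library gave 1 to 4 (1 without sham male replicate 2 or injured male replicate 2). In female tubules the count was 0, and 1 (Bhmt) with DESeq2, with only the groups compared or without both male replicates 3, and 0 to 1 leaving out a library. For the sex difference in tubules it was 0, and 2 with no filter or DESeq2, 1 with the distal score, 3 without both male replicates 3 and 0 to 2 leaving out a library. In male isolates it was 0, and 1 (Bhmt) with no filter or DESeq2 and 0 to 1 leaving out a library. In female isolates and for the sex difference there it was 0, and 1 (Apoh) with no filter or DESeq2, and 0 leaving out a library. Over all genes, the sex difference in tubules was called for 157, and for 153 with RLE, 399 with no filter, 1482 with DESeq2, 66 with length offsets, 4884 with the distal score, 54 with the replicate block and 6276 without both male replicates 3. The replicate block gave 0 members in each comparison other than male tubules. Within each material, deviations from the group mean of same-numbered samples correlated at -0.066 to 0.176 in tubules and -0.282 to 0.248 in isolates. Differently numbered samples gave -0.169 to 0.173 and -0.323 to 0.326. With so few samples a group, these values cannot show whether the numbers pair samples, and tubules were not set against isolates.

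Some log2 changes turned sign, none of them called. In male tubules Kap was 0.017 and Acsm3 0.15 without both male replicates 3. In female tubules Ceacam2 was 0.021 with no filter, 0.0099 with the replicate block and 3.12 with the distal score, Serpina1f 0.49 with the distal score and Atp13a4 0.34 with length offsets. The sex difference of Bhmt in tubules was 0.0114 with technical library 3B alone. With the proximal tubule score, male isolates gave Acsm3 0.37, Apoh 0.23, Sorcs1 1.86, Atp13a4 -0.067 and Serpina1f 0.63, female isolates Ceacam2 -0.29, and the sex difference Serpina1f 0.25. With length offsets, Atp13a4 was -0.50 in male and 0.35 in female isolates and -0.84 for the sex difference, and Ceacam2 -0.23 in female isolates. Serpina1f in female isolates was -0.0024 with RLE and -0.0025 with DESeq2.

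Leaving out a library gave these ranges where the sign turned. In male tubules Kap ran over -0.61 to 0.10 and Acsm3 over -0.44 to 0.086. In female tubules Acsm3 ran over -3.35 to 1.55, Sorcs1 over -1.75 to 3.43, Ceacam2 over -0.29 to 0.45 and Serpina1f over -0.91 to 0.42. For the sex difference in tubules, Acsm3 ran over -1.78 to 3.12 and Bhmt over -0.35 to 0.16. In male isolates Sorcs1 ran over -1.27 to 0.072, Ceacam2 over -1.29 to 0.74 and Atp13a4 over -0.51 to 1.48. In female isolates Ceacam2 ran over -0.13 to 0.46, Atp13a4 over -0.36 to 0.0195 and Serpina1f over -0.13 to 0.18. For the sex difference in isolates, Sorcs1 ran over -0.43 to 0.90, Ceacam2 over -1.42 to 0.61 and Atp13a4 over -0.30 to 1.69. The cause of these changes was not tested.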

Other observations

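Several members had their reads split over transcripts. Over all samples its 2 transcripts, Kap-201 and Kap-202, took 61.0% and 39.0% of its reads. Apoh-201 took 99.8% of the Apoh reads and Bhmt-201 took 99.8% of the Bhmt reads, whereas Acsm3-203 and Acsm3-201 took 50.1% and 35.4%, Atp13a4-202 and Atp13a4-208 took 49.2% and 25.5%, and 8 Sorcs1 transcripts shared its reads and the leading one, Sorcs1-208, took 38.6%.

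For each member, the 2 protein-coding genes with the closest pattern were found among 10642 genes by Pearson's r of log2 CPM over the 23 samples. Each member had male and female ranges apart in both materials, so r here mainly ranks genes by a like difference between the sexes and is a description. Kap was closest to Akr1c14 (0.95) and Slco1a6 (0.94), and Acsm3 to Slco1a1 (0.99) and the Y-linked Eif2s3y (0.98). Apoh was closest to C4b (0.95) and Crispld2 (0.94), and Sorcs1 to Chst7 (0.98) and Slco3a1 (0.97). Atp13a4 was closest to Ugt1a2 and Dio1 (0.96 each), and Bhmt to Slc22a27 (0.97) and Cyp2d26 (0.96). Slc22a13, an organic anion transporter gene, was among the closest for both Ceacam2 (0.92, beside Ptpdc1 at 0.91) and Serpina1f (0.94, beside Mettl7a2 at 0.94). It averaged 1.01 CPM in injured male tubules and 8.97 CPM in sham male tubules, and 34.7 CPM in injured and 36.7 CPM in sham female tubules.

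The 2 technical libraries of sham male tubule replicate 3 differed in the members. Scaled to a library of 1e6 reads, Kap had 10403 in the first library and 18441 in the second, Acsm3 had 552 and 764, Apoh had 4.34 and 7.79, and Ceacam2 had 0 and 0.919. Sorcs1 had 12.8 and 10.1 and Bhmt 3.12 and 2.28, in the other direction.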
